A study of Mus musculus with 9 samples.

Results

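The genes described here take part in the uptake of dying cells by their neighbours. They are 4 receptors that read phosphatidylserine on the dying cell (Timd4, Mertk, Axl and Tyro3), 3 secreted proteins that bridge the dying cell to a receptor (Gas6, Pros1 and Mfge8), the lipid receptor Trem2 with its signalling adaptor Tyrobp, and Itgb2, the common chain of the beta-2 integrins that include a complement receptor. They form a pathway by function, and all 10 were found among the 53713 named gene rows. Each was counted in single liver cells that had been sorted into classes by UMIs of marker genes, and none of the 10 serves as a marker of any class. A UMI is a unique molecular identifier, by which copies of a transcript made by PCR are counted once.

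The study examined how clusterin, a secreted chaperone, and its receptor LRP2 bear on liver scarring. Livers came from C57BL/6J mice 6 to 8 weeks old in 9 samples. In 6 samples labelled CluKO, mice lacking clusterin by their label received recombinant human clusterin together with carbon tetrachloride (CCl4), a toxin that injures hepatocytes, over a period not stated in the labels. The 3 wild-type samples had 0, 2 and 4 weeks of CCl4. The 6 samples labelled CluKO lie in 1 matrix whose barcodes carry no sample name, and the design text speaks of 3 mice in that group. Their labels give neither the extent of the Clu deletion nor whether mice were pooled before dissociation. All CluKO mice received both CCl4 and the recombinant protein, so the effects of genotype, toxin and protein cannot be told apart. Gene names pair with the rows of this matrix alone, so levels by wild-type time point were not analysed here, and nothing below compares CluKO with wild type.

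The matrix labelled CluKO held 4694 cells and 28912707 UMIs, with a median of 4803.5 UMIs per cell, and 4616 cells were kept. Wild-type matrices held 7739 to 20215 cells and 53387027 to 102125170 UMIs. With 1 pooled matrix there are no replicates, so differences could not be tested against the spread between mice and are read against counting error. Levels are UMIs summed over the cells of a class and scaled to 1000000 UMIs of that class (CPM). The intervals in brackets are 95% and reflect counting error alone and leave out differences between mice. Clu was counted in this matrix despite its label. It stood at 1589 CPM (1548 to 1630) in mesothelial-like cells and at 931 CPM (894 to 968) in hepatocyte-like cells, against 15.8 CPM (8.40 to 27.0) in neutrophil-like cells. Tags at the transcript's end outside a deletion check nothing, and the sources used here do not state which stretch was deleted.

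A dying cell exposes phosphatidylserine, a lipid that healthy cells keep on the inner face of their membrane. TIM-4, the product of Timd4, binds this lipid directly and tethers the corpse, whereas the kinases Mertk, Axl and Tyro3 reach it through the bridging proteins Gas6 and protein S. In the liver such uptake is a known task of Kupffer cells, the resident macrophages of the sinusoids, and injury adds macrophages that derive from blood monocytes. TREM2 binds lipids and lipoproteins and signals through TYROBP, and it is a known mark of the lipid-associated macrophages of injured fatty and fibrotic tissue.

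Timd4 and Trem2, the receptors with the largest ratios in opposite directions between the macrophage classes described below, are shown first by their promoters. The sequences are the 250 bases upstream of the annotated start, 5' to 3' on the gene's strand, from RefSeq on GRCm38.p6. Of the 10 genes, 8 had an entry, and Tyrobp and Itgb2 are named only. Capitals mark matches, on either strand, to 4 short motifs of factors known in macrophages. These were the PU.1 core GAGGAA, the MAF half-site TGCTGA, the E-box CACGTG and the nuclear receptor half-site AGGTCA, and no 2 matches overlap. The Timd4 window is chr11:46810549-46810798 and the Trem2 window chr17:48346151-48346400, both on the plus strand.

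Timd4: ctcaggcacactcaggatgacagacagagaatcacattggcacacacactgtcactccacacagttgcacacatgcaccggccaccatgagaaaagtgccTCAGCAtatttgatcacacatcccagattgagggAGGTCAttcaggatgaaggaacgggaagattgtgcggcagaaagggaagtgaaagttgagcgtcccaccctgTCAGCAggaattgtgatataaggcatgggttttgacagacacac
Trem2: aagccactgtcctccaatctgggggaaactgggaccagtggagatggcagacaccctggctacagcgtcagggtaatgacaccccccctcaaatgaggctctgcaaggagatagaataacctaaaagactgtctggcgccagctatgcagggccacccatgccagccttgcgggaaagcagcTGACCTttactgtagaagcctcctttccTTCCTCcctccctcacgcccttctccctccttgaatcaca

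The Timd4 window held 2 MAF half-sites and 1 nuclear receptor half-site. The Trem2 window held 1 PU.1 core and 1 nuclear receptor half-site. Axl and Mfge8 each had 1 PU.1 core, and the windows of Mertk, Tyro3, Gas6 and Pros1 held none of the 4 motifs. Among 32851 promoters of the same length, 23.3% held a PU.1 core, 16.1% a MAF half-site, 14.0% a nuclear receptor half-site and 6.02% the E-box. These are matches of letters and not shown to be bound. CpG pairs numbered 4 in both printed windows, 5 for Axl, 7 for Mertk, 10 for Gas6, 12 for Mfge8, 15 for Pros1 and 24 for Tyro3, against a median of 6 over all promoters.

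Classes were drawn by counting which markers of a list had a UMI in a cell. Macrophage/monocyte-like cells, 2098 in all, had at least 7 of 15 lineage markers. Within them 1032 lipid-associated macrophage-like cells had at least 5 of 8 markers such as Gpnmb and Spp1 (median depth 6621.5 UMIs). A further 543 Kupffer-like cells had at least 6 of 8 markers such as Clec4f and Marco (3912 UMIs). There were 146 Cx3cr1 macrophage-like cells (3285 UMIs) and 215 monocyte-like cells (3831 UMIs). Outside the lineage stood 464 mesothelial-like cells, with markers of the sheet that covers the liver (7157 UMIs). Beside them stood 601 hepatocyte-like cells (3364 UMIs), 200 neutrophil-like cells (3428 UMIs) and 164 plasma-cell-like cells (8716 UMIs). Cells that met the gates of more than 1 lineage, 498 in all, were kept out of the classes. Of the 10 leading genes of a class, 6 were gate markers in Kupffer-like and 5 in lipid-associated macrophage-like cells. The gates themselves favour this, so it is no check of the class names. Cdh5, a marker of the endothelial list, was also among the 10 of Kupffer-like cells. Mesothelial-like cells had 3 gate markers among their 10, beside Dcn of the stellate/fibroblast list. They showed a median of 3 of the 12 stellate/fibroblast markers and 2 of the 9 cholangiocyte markers. Dendritic-like cells had 3 gate markers and 3 of another class, and the 10 of Cx3cr1 macrophage-like cells held the dendritic marker Cd209a.

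**Figure D1:**
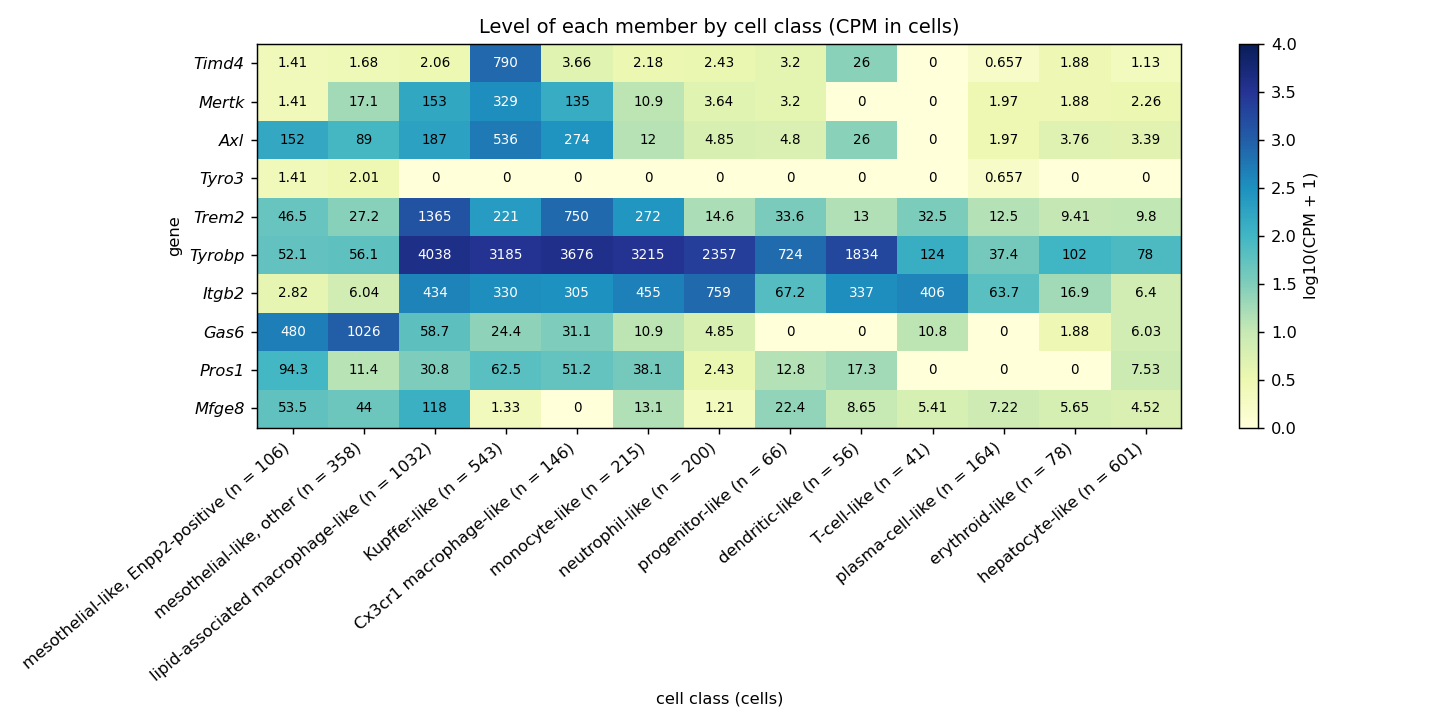
Level of each of the 10 genes (down the page) in each cell class (across, with its number of cells), as CPM printed in the cells of the grid. Timd4 reached 790 CPM in Kupffer-like cells, Trem2 1365 CPM in lipid-associated macrophage-like cells and Gas6 1026 CPM in mesothelial-like cells other than the Enpp2-positive ones, while Tyro3 stayed at or under 2.01 CPM in each class drawn.

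Timd4 (ENSMUSG00000055546, GRCm38 chr11:46810800-46844332, plus strand) was the receptor that lay most in a single class. Kupffer-like cells had 790 CPM (754 to 828), from 1781 of the 2101 Timd4 UMIs in the matrix. Dendritic-like cells followed at 26.0 CPM, but all 6 UMIs there came from 1 of 56 cells. Every other class of at least 40 cells stood at 3.66 CPM or lower. The 16 endothelial-like cells, a class too small for comparison, had 60.8 CPM (12.5 to 178), from 3 UMIs in 2 cells. Lipid-associated macrophage-like cells had 2.06 CPM (1.18 to 3.35) and monocyte-like cells 2.18 CPM (0.264 to 7.86), close to the 2.43 CPM (0.294 to 8.77) of neutrophil-like cells. A Timd4 UMI was seen in 84.3% of Kupffer-like cells (81.0 to 87.3), against 0.523% (0.143 to 1.33) of 765 hepatocyte-like and plasma-cell-like cells, which serve as background for the macrophage genes (median depth 3950 UMIs). With every cell thinned to 1000 UMIs the shares were 49.4% and 0%. No cell was shallower than 1000 UMIs, so thinning left none out. Among the positive Kupffer-like cells the mean was 3.89 UMIs per cell, and the highest cell held 19.

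Mertk and Axl, the receptor kinases that need a bridge, were spread over more macrophages. Mertk (ENSMUSG00000014361, chr2:128698956-128802894, plus strand) stood at 329 CPM (305 to 353) in Kupffer-like, 153 (144 to 162) in lipid-associated and 135 (106 to 169.9) in Cx3cr1 macrophage-like cells. The last 2 did not differ beyond counting error. Monocyte-like cells had 10.9 CPM (5.22 to 20.01) and neutrophil-like cells 3.64 CPM (0.751 to 10.6). By share of cells with a UMI, Kupffer-like cells stood at 63.4%, or 27.8% thinned, against 1.18% and 0.261% in the background cells. The Mertk locus overlaps the annotated genes Gm23172 on the same strand and Gm14011 on the opposite one, and the sources used here do not state whether strand was used in counting.

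Axl (ENSMUSG00000002602, chr7:25757273-25788705, minus strand) had a different order of classes. It was 536 CPM (506 to 567) in Kupffer-like cells, 274 (232 to 322) in Cx3cr1 macrophage-like, 187 (177 to 197) in lipid-associated and 101 (91.1 to 112) in mesothelial-like cells. Each of these neighbours differed beyond counting error. Dendritic-like cells had 26.0 CPM (9.52 to 56.5), monocyte-like cells 12.0 (5.98 to 21.4) and neutrophil-like cells 4.85 (1.32 to 12.4). Its share of positive Kupffer-like cells was 80.7%, or 43.8% thinned, against 1.66% and 0.830% of 241 neutrophil-like and T-cell-like cells (median depth 3492 UMIs), the background for genes that lie outside macrophages as well.

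Mesothelial-like cells carried Axl at a higher level than the other classes of at least 40 cells outside the macrophage lineage. Each count was also set against Tyrobp, which macrophages express strongly. Mesothelial-like cells had 183 Axl UMIs (154 to 218) per 100 Tyrobp UMIs, against 6.60 (6.36 to 6.84) in macrophage/monocyte-like cells. Hepatocyte-like cells had 4.35 (1.96 to 8.42). The same ratio for Itgb2 was 9.80 (5.86 to 15.5) in mesothelial-like and 10.9 (10.5 to 11.2) in macrophage/monocyte-like cells. For Mertk it was 25.5 (18.4 to 34.7) in mesothelial-like and 4.66 (4.46 to 4.86) in macrophage/monocyte-like cells. For Trem2 it was 55.9 (44.0 to 70.6) in mesothelial-like and 27.0 (26.4 to 27.5) in macrophage/monocyte-like cells, and for Mfge8 82.8 (67.2 to 102) and 2.00 (1.87 to 2.13). Of these 5 genes, Itgb2 alone had intervals that overlapped. Mfge8 was 5.80 (2.95 to 10.3) in hepatocyte-like and 19.3 (9.12 to 37.2) in plasma-cell-like cells, above the pooled macrophage ratio. The hepatocyte-like interval overlapped that of lipid-associated cells, at 2.92 (2.73 to 3.12). Trem2 was 12.6 (8.01 to 18.9) in hepatocyte-like cells, below the pooled macrophage ratio, and 33.3 (18.7 to 56.9) in plasma-cell-like cells. In both classes the intervals of Mertk and Axl held the pooled macrophage ratio. That ratio hides differences between macrophage classes. In lipid-associated and Kupffer-like cells it was 4.63 and 16.8 for Axl, 3.79 and 10.3 for Mertk, and 33.8 and 6.95 for Trem2. The part of stray macrophage RNA in the mesothelial-like counts was not tested.

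Tyro3, the remaining kinase of that family (ENSMUSG00000027298, chr2:119797733-119818104, plus strand), was barely detected. The whole matrix held 12 Tyro3 UMIs in 9 cells. Mesothelial-like cells had 7 of them, in 5 cells, or 1.90 CPM (0.763 to 3.91), and 1.08% of these cells were positive (0.431% thinned). None of the 2098 macrophage/monocyte-like cells had a Tyro3 UMI, which allows a share of cells with a UMI of up to 0.143% and says nothing of transcripts missed at this depth. None of the 241 neutrophil-like and T-cell-like cells had one, which allows up to 1.24%. With the gate 1 marker looser the highest level fell in plasma-cell-like cells instead.

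Trem2 (ENSMUSG00000023992, chr17:48346401-48354147, plus strand) ran the other way from Timd4 among macrophages. It was 1365 CPM (1339 to 1391) in lipid-associated, 749.8 (679 to 826) in Cx3cr1 macrophage-like, 272 (239 to 308) in monocyte-like and 221 (202 to 242) in Kupffer-like cells. All 4 differed beyond counting error. Lipid-associated cells held 73.9% of all Trem2 UMIs. A UMI was seen in 99.2% of lipid-associated macrophage-like cells, or 72.7% thinned, against 5.36% and 1.18% of the hepatocyte-like and plasma-cell-like background. In the Kupffer-like class a Trem2 UMI was seen in 34.1% of cells, and the 54 highest cells held 61.1% of the class's Trem2 UMIs. The 103 highest of the lipid-associated cells held 23.9%. Such shares are higher for sparse genes, and for Pros1 the 54 highest Kupffer-like cells held 63.8%. Whether the Kupffer-like class was mixed for Trem2 was not tested.

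Tyrobp, the adaptor that TREM2 and many other receptors share (ENSMUSG00000030579, chr7:30413760-30417585, plus strand), was high throughout the myeloid cells. Its level was 4038 CPM (3994 to 4083) in lipid-associated, 3676 (3517 to 3840) in Cx3cr1 macrophage-like, 3215 (3100 to 3333) in monocyte-like and 3185 (3112 to 3260) in Kupffer-like cells, where the last 2 did not differ beyond counting error. Neutrophil-like cells followed at 2357 CPM (2253 to 2464), dendritic-like cells at 1834 (1664 to 2017) and progenitor-like cells at 724 (658 to 793). The 19 basophil/mast-like cells stood at 3940 CPM (3457 to 4473). Among lipid-associated macrophage-like cells 99.9% had a UMI, or 94.8% thinned. In the background cells the shares were 22.6% and 5.23%, so a single Tyrobp UMI says little of a cell.

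Itgb2 (ENSMUSG00000000290, chr10:77530252-77565708, plus strand) was the only one of the 10 led by neutrophil-like cells, at 759 CPM (700.2 to 820.4). Monocyte-like cells had 455 CPM (412 to 501), lipid-associated cells 434 (419 to 449), T-cell-like cells 406 (319 to 509), dendritic-like cells 337 (267 to 421), Kupffer-like cells 330.5 (307 to 355) and Cx3cr1 macrophage-like cells 305 (261 to 355). From monocyte-like cells downward no neighbours in this order differed beyond counting error. A UMI was found in 91.0% of neutrophil-like cells (47.5% thinned), against 10.6% (1.18% thinned) of the background. That background was uneven, since plasma-cell-like cells had a UMI in 39.6% of cells at a median of 8716 UMIs and hepatocyte-like cells in 2.66% at 3364 UMIs. Per 100 Tyrobp UMIs, plasma-cell-like cells had 170.2 Itgb2 UMIs (121 to 240.4), far above the macrophage ratio.

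**Figure D2:**
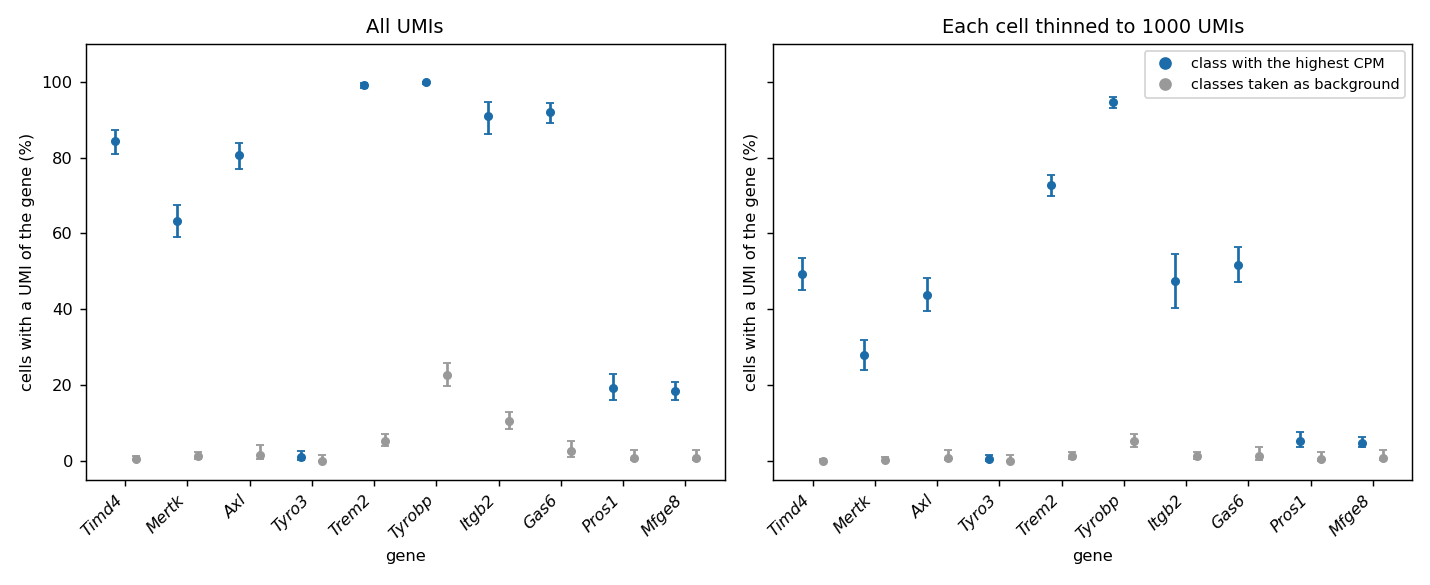
Share of cells with at least 1 UMI of each gene, in percent, in the leading class of each gene and in its background class, with all UMIs and with each cell thinned to 1000 UMIs; bars of error are exact 95% intervals. Thinning lowered Trem2 to 72.7% and Tyrobp to 94.8% of lipid-associated macrophage-like cells, and Pros1 and Mfge8 to 5.34% and 4.75% of their leading classes.

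Of the bridging proteins, Gas6 was counted chiefly outside the macrophages that carry its receptors. Gas6 (ENSMUSG00000031451, chr8:13465374-13494490, minus strand) is the ligand of Axl, Mertk and Tyro3. Mesothelial-like cells had 921 CPM (890.0 to 952) and held 77.1% of its 4404 UMIs. Lipid-associated macrophage-like cells had 58.7 CPM (53.5 to 64.4), Cx3cr1 macrophage-like cells 31.1 (18.1 to 49.8) and Kupffer-like cells 24.4 (18.4 to 31.8). Monocyte-like cells had 10.9 (5.22 to 20.01) and neutrophil-like cells 4.85 (1.32 to 12.4). The 16 endothelial-like cells, a class too small for comparison, had 243 CPM (126 to 425). Mesothelial-like cells had a Gas6 UMI in 92.0% of cells, or 51.7% thinned, against 2.49% and 1.24% of neutrophil-like and T-cell-like cells. Gas6 overlaps Tmem255b on the opposite strand, and without a stated strand setting reads of these genes cannot be told apart.

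Pros1, the gene of protein S (ENSMUSG00000022912, chr16:62854307-62929346, plus strand), was low and broad. It stood at 62.5 CPM (52.6 to 73.8) in Kupffer-like, 51.2 (34.0 to 74.0) in Cx3cr1 macrophage-like, 38.1 (26.5 to 53.0) in monocyte-like, 30.8 (27.0 to 34.9) in lipid-associated and 27.4 (22.3 to 33.3) in mesothelial-like cells. No neighbours in this order differed beyond counting error. Hepatocytes are a known source of the protein S in blood plasma, and hepatocyte-like cells here had 7.53 CPM (4.60 to 11.6). Endothelial-like cells had 446 CPM (279 to 675), from 22 UMIs in 13 of 16 cells. Kupffer-like cells showed a median of 2 of the 12 endothelial markers, and the part of stray endothelial RNA in their Pros1 count was not tested. A UMI was seen in 19.3% of Kupffer-like cells (5.34% thinned), against 0.830% (0.415% thinned) of neutrophil-like and T-cell-like cells.

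Mfge8, which links phosphatidylserine to alpha-v integrins (ENSMUSG00000030605, chr7:79133768-79149060, minus strand), led in lipid-associated macrophage-like cells at 118 CPM (110.5 to 126). Mesothelial-like cells had 45.8 CPM (39.2 to 53.3) and progenitor-like cells 22.4 (12.2 to 37.6). The 16 endothelial-like cells had 101 CPM (32.9 to 236), from 5 UMIs. Monocyte-like cells had 13.1 CPM (6.75 to 22.8) and Kupffer-like cells 1.33 (0.274 to 3.89). Cx3cr1 macrophage-like cells had no Mfge8 UMI in 146 cells, which allows up to 5.49 CPM. A UMI was seen in 18.4% of lipid-associated cells, or 4.75% thinned, against 0.830% of neutrophil-like and T-cell-like cells both before and after thinning.

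**Figure D3:**
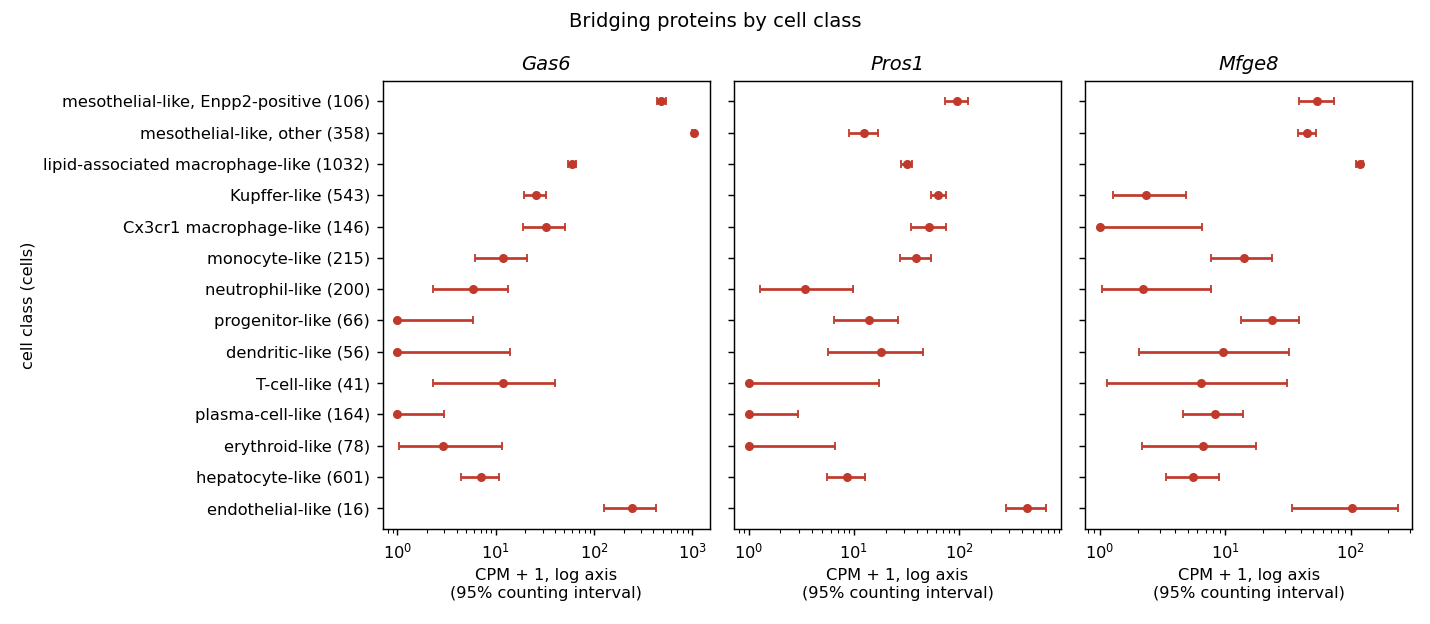
Level of the bridging proteins Gas6, Pros1 and Mfge8 in each cell class (down the page, with its number of cells), as CPM + 1 on a log axis with 95% counting intervals, or up to the limit of 3 counts where the count was 0. Gas6 reached 1026 CPM in mesothelial-like cells other than the Enpp2-positive ones, Mfge8 118 CPM in lipid-associated macrophage-like cells, and Pros1 446 CPM in 16 endothelial-like cells.

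Few cells held most of the Mfge8 UMIs. Of the 1032 lipid-associated macrophage-like cells, 63 (6.10%) held at least 5 Mfge8 UMIs, and together they held 701 UMIs, or 76.5% of the class. This cut was chosen after the values were seen. The 63 cells were deeper, with a median of 11910 UMIs against 6182.5 in the 842 lipid-associated cells with none, and the part of depth in the result was not tested. Ctsk, which encodes the collagen-cleaving protease cathepsin K, was 449.7 CPM in the 63 cells and 49.7 CPM in the 842, 9.05-fold higher (7.71 to 10.6). Mmp12, a macrophage elastase and a gate marker of the class, was 5179 and 1773 CPM, 2.92-fold higher (2.82 to 3.03). Itgax was 2.47-fold higher (1.95 to 3.11), and H2-Ab1, an MHC class II chain, 2.54-fold lower (2.09 to 3.13). Ccr2, the monocyte chemokine receptor, had 1 UMI in the 63 cells and 273 in the 842.

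The other uptake genes differed less between these cells. Mertk was 176 CPM in the Mfge8-high cells and 153 CPM in those with none, with a ratio interval of 0.956 to 1.39. For Axl the values were 179 and 195 CPM (0.764 to 1.10), and for Trem2 1515 and 1343 CPM (1.06 to 1.20). Gas6 was 41.1 and 61.3 CPM, 1.49-fold lower (1.03 to 2.23). Split by Mmp12 instead, another division made after the data were seen, Mfge8 was 179 CPM (166 to 192) in 441 lipid-associated cells with at least 5 Mmp12 UMIs and 39.9 CPM (32.0 to 49.1) in 384 with none. In all 190 lipid-associated cells with an Mfge8 UMI, Trem2 was detected as well, but Trem2 was seen in 99.2% of the class. Both were seen in 18.4% of its cells, where the product of their separate shares was 18.3%.

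Set side by side, lipid-associated macrophage-like and Kupffer-like cells differed in 7 of the 9 genes counted, taking a ratio of at least 2-fold as the mark of a difference. Lipid-associated cells were higher in Gas6, Mfge8 and Trem2. They were lower in Timd4, Mertk, Axl and Pros1. The background for such counts was high, since of 10313 genes with 30 or more UMIs over the pair, 8.22% were at least 2-fold higher and 16.0% at least 2-fold lower. The median log2 ratio, with 20 CPM added to both sides, was 0.34 over the 9 genes and -0.08 over all genes. Tyro3 had no UMI on either side.

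Among the 9 genes Timd4 had the widest gap. It was 2.06 CPM in lipid-associated cells, from 16 UMIs, against 790 CPM in Kupffer-like cells, a level 383-fold lower (235 to 672). Mfge8 was 88.7-fold higher (30.2 to 431), resting on 3 UMIs in Kupffer-like cells. Trem2 was 6.17-fold higher (5.64 to 6.76) and Gas6 2.41-fold higher (1.82 to 3.25). Axl was 2.87-fold lower (2.66 to 3.10). Mertk was 2.15-fold lower (1.96 to 2.36) and Pros1 2.03-fold lower (1.64 to 2.51), so both lay near the 2-fold mark. Endothelial-like cells had more Pros1 than either class, and the part of stray endothelial RNA was not tested. The log2 ratio of Mertk, -1.10 as given, was -0.96 without cycling cells and -0.95 with the most abundant genes taken out of the total, and that of Pros1 was -1.02 as given and -0.87 with those genes taken out. Tyrobp and Itgb2 were 1.27-fold (1.24 to 1.30) and 1.31-fold (1.21 to 1.42) higher.

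**Figure D4:**
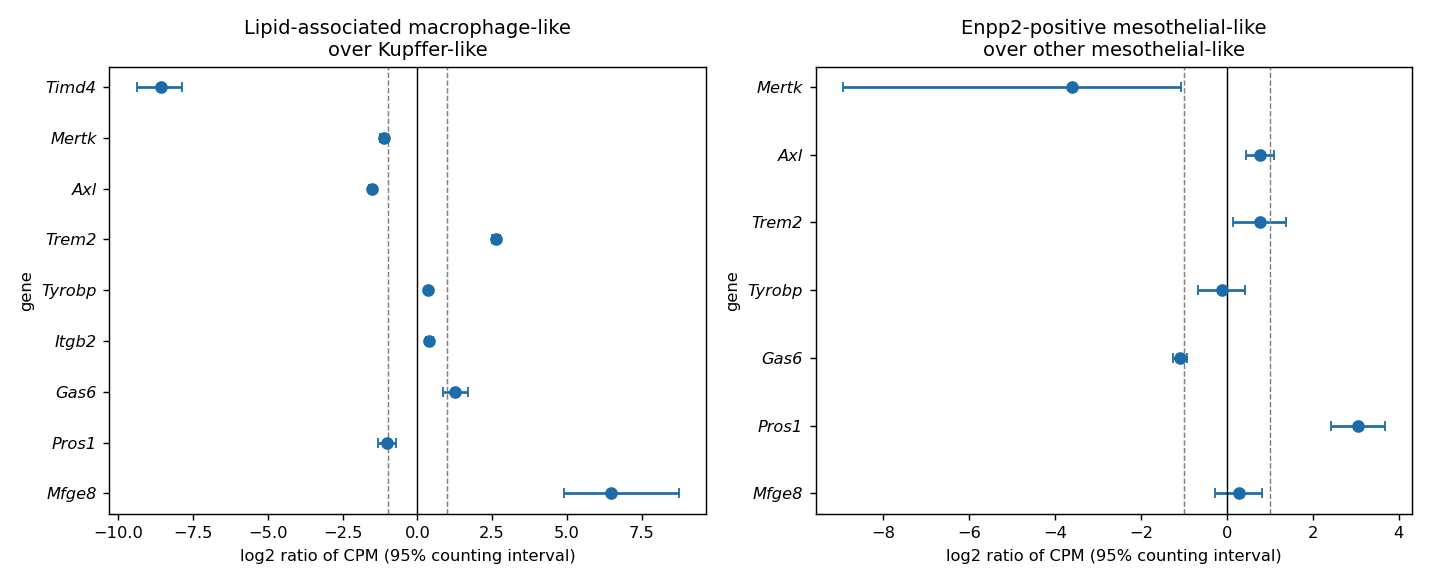
Log2 ratio of CPM of each gene in lipid-associated macrophage-like over Kupffer-like cells (left) and in Enpp2-positive over other mesothelial-like cells (right), with 95% counting intervals and dashed lines at 2-fold. In lipid-associated macrophage-like against Kupffer-like cells the points run from -8.58 for Timd4 to 6.47 for Mfge8, with Tyrobp at 0.34 and Itgb2 at 0.39, and on the right Pros1 lies at 3.05, Gas6 at -1.10 and Mertk at -3.60.

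Levels of the kinases rose over more steps of a Kupffer marker count than that of Timd4. Macrophage/monocyte-like cells were ordered by how many of the 8 Kupffer markers they showed, from 0 to 8, whatever their other gates. The low steps thus include monocyte-like cells, which had little Mertk and Axl. A rise over those steps is therefore not the difference between lipid-associated and Kupffer-like cells. Timd4 stayed between 0.734 and 3.85 CPM in cells with 0 to 4 markers. It was 27.6 CPM at 5 markers, 189 at 6, 538 at 7 and 822 at 8. Mertk was 47.7 CPM at 0 markers, 149 at 2, 199 at 4, 189 at 5, 238 at 6, 306 at 7 and 335 at 8. Axl was 65.3 CPM at 0 markers, 206 at 2, 247 at 4, 232 at 5, 349 at 6, 557 at 7 and 541 at 8. From 5 to 7 markers Timd4 and both kinases rose.

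Trem2 and Mfge8 peaked in the middle of this order. Trem2 was 645 CPM at 0 markers, 1394 at 3, 1008 at 5, 413 at 7 and 224 at 8. Mfge8 was 10.3 CPM at 0 markers, 166 at 3 and 74.8 at 5, and the 601 cells with 6 or more markers held almost none, with 0 CPM at 6 and 7 and 1.58 CPM at 8. Gas6 ran from 27.2 CPM at 0 to 64.2 at 4 and was 29.5 at 8. The steps with 5 and 6 markers held 35 and 48 cells, and median depth ran between 3619 and 6780 UMIs over the steps.

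**Figure D5:**
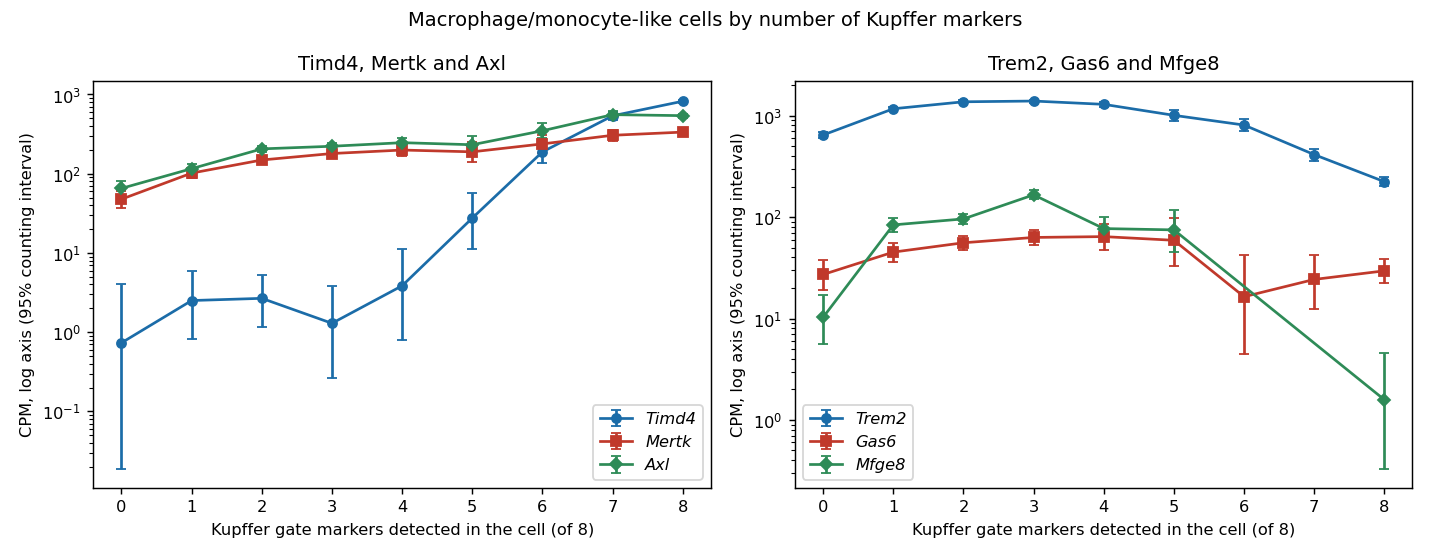
Level of the receptors and of the bridging proteins with Trem2 in macrophage/monocyte-like cells, by the number of the 8 Kupffer markers detected in the cell (x axis), as CPM on a log axis with 95% counting intervals. Timd4 lies under 4 CPM up to 4 markers and at 822 CPM at 8, while Mertk runs from 47.7 CPM at 0 markers to 335 CPM at 8 and Axl from 65.3 CPM to 541 CPM, each with a dip at 5; Mfge8 is 0 at 6 and 7 markers and is not drawn there.

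A group of 56 cells met the Kupffer and the lipid-associated gates together (median depth 5774 UMIs). It lay between the classes for Timd4, at 248 CPM (199.5 to 304), and for Trem2, at 863 CPM (771 to 964). Mertk was 278 CPM (226 to 337) and Axl 474 CPM (406 to 550), and Mfge8 had no UMI, which allows up to 8.17 CPM. Timd4 and Trem2 were seen together in 46.4% of these cells, against 1.45% of lipid-associated and 25.8% of Kupffer-like cells. The products of their separate shares were 47.4%, 1.44% and 28.7% in the same order. Whether the 56 cells are single cells or pairs that share a barcode was not tested.

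A further 99 cells met the macrophage/monocyte and neutrophil gates together, with Il1b, Cxcl2 and Cxcr2 among their leading genes (median depth 6738 UMIs). Their intervals overlapped those of lipid-associated cells for Tyrobp, at 4047 CPM (3907 to 4191), Axl, at 160.0 (133 to 191), and Mertk, at 134 (110.0 to 163). Trem2, at 1152 CPM (1078 to 1230), lay below the 1365 CPM (1339 to 1391) of lipid-associated cells. Mfge8 was 198 CPM (168 to 232), but 1 of these cells held 95 of its 155 UMIs. S100a8, a marker of the neutrophil gate, was 12007 CPM in the 99 cells and 348 CPM in lipid-associated cells. Whether the 99 cells are single cells or pairs that share a barcode was not tested.

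A UMI of both Mertk and Axl was seen in 37.3% of lipid-associated and 52.3% of Kupffer-like cells, where the product of their separate shares was 33.5% and 51.1%. At least 1 of them was seen in 78.5% of lipid-associated and 91.7% of Kupffer-like cells. In mesothelial-like cells Axl stood mostly alone, with Axl only in 44.0%, both in 3.02% and Mertk only in 5.17%. Timd4 and Mertk were detected together in 55.8% of Kupffer-like cells, where the product of their shares was 53.4%. Trem2 with Tyrobp was detected in 99.1% of lipid-associated and 33.7% of Kupffer-like cells, where the products were 99.1% and 33.9%. All but 3 of the 1585 Trem2-positive macrophage/monocyte-like cells had Tyrobp, which was seen in 99.8% of all macrophage/monocyte-like cells. Such shares depend on depth, which was 6621.5 UMIs in lipid-associated and 3912 in Kupffer-like cells.

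Mesothelial-like cells against all macrophage/monocyte-like cells gave 1 gene of 9 at least 2-fold higher, where 24.5% of 12274 genes were. Gas6 was 921 CPM in mesothelial-like and 46.8 CPM in macrophage/monocyte-like cells, 19.7-fold higher (18.0 to 21.5). Another 6 were at least 2-fold lower, against 16.4% of genes. Among these Axl was 101 and 250.4 CPM, 2.48-fold lower (2.22 to 2.76), and Mertk 14.1 and 177 CPM, 12.5-fold lower (9.52 to 16.8). Timd4, Trem2, Tyrobp and Itgb2 were 33.1-fold to 94.7-fold lower. Pros1 and Mfge8 were 1.42-fold (1.14 to 1.77) and 1.65-fold (1.40 to 1.96) lower. Taken as the mean over cells of each cell's own CPM, the log2 ratio of Mfge8 was 0.00, against -0.73 from summed counts.

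The ligand Gas6 and its receptor Axl were both detected in 42.5% of mesothelial-like cells, against 12.6% of macrophage/monocyte-like cells. The product of the genes' separate shares was 43.2% in mesothelial-like and 10.8% in macrophage/monocyte-like cells. Gas6 without Axl was found in 49.6% and 5.58%, and Axl without Gas6 in 4.53% and 46.8%. Cells in division had less Gas6, since cycling mesothelial-like cells stood at 406 CPM (369 to 444) and the others at 1148 CPM (1107 to 1190). Axl was 122 CPM (103 to 144) in cycling and 91.8 CPM (80.4 to 104) in the other mesothelial-like cells.

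Gas6 and Pros1 were divided within the mesothelial-like cells. Enpp2, the gene of the lysophospholipase autotaxin, marked 106 of them with at least 2 UMIs. Pros1 was 94.3 CPM (73.1 to 119.8) in Enpp2-positive and 11.4 CPM (7.91 to 15.9) in the other 358 cells, 8.26-fold higher (5.39 to 12.9). Gas6 was 480.1 CPM (430.5 to 534) in Enpp2-positive and 1026 CPM (989.7 to 1063) in other cells, 2.14-fold lower (1.91 to 2.40). Mertk had 1 UMI in Enpp2-positive and 51 in other cells, 12.2-fold lower (2.09 to 489.7). Per 100 Tyrobp UMIs, Mertk was 2.70 (0.0666 to 16.0) in Enpp2-positive cells, an interval that holds the macrophage ratio, and 30.5 (21.9 to 42.0) in other cells. Of 9428 genes 5.38% were at least 2-fold higher and 8.56% lower, against 1 and 2 of the 7 genes counted.

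Axl was 152 CPM (125 to 184) in Enpp2-positive and 89.0 CPM (78.6 to 100) in other mesothelial-like cells, 1.71-fold higher (1.35 to 2.15). Without cycling cells Axl also passed 2-fold. Gas6 and Pros1 together were found in 31.1% of Enpp2-positive and 8.66% of other cells, and Gas6 alone in 46.2% and 87.7%. The products of their separate shares were 31.4% and 8.88%. Median depth was 5890.5 UMIs in Enpp2-positive and 7482.5 UMIs in other cells. Mfge8 was 53.5 CPM (37.9 to 73.4) and 44.0 CPM (36.8 to 52.2), with a ratio interval of 0.824 to 1.76.

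Against neutrophil-like cells, macrophage/monocyte-like cells were at least 2-fold higher in 7 of 9 genes, where 57.3% of 10886 genes were, so a count of this size says little of these genes. None was at least 2-fold lower, against 7.48% of genes. Trem2 was 1024 and 14.6 CPM, 70.3-fold higher (40.2 to 136), and the other 6 rested on 1 to 4 UMIs in neutrophil-like cells. Axl was 51.6-fold higher (20.1 to 189) and Mertk 48.5-fold higher (16.6 to 235). Tyrobp was 3796 and 2357 CPM, 1.61-fold higher (1.54 to 1.69). Itgb2 was 412 and 759 CPM, 1.84-fold lower (1.69 to 2.00), and it passed 2-fold when mitochondrial, haemoglobin and the 50 most abundant genes were left out of the totals.

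Other genes of the pathway were read from 8 lists, between lipid-associated macrophage-like and Kupffer-like cells. The lists were drawn up with earlier results of these data known, and their counts stand beside the 8.22% and 16.0% of all genes given above. Of 15 uptake receptors counted, of 21 listed, 3 were at least 2-fold higher and 3 lower, with a median log2 ratio of -0.18. Stab1, a scavenger receptor that also binds phosphatidylserine, was 270.3 CPM in lipid-associated and 67.4 CPM in Kupffer-like cells, 4.01-fold higher (3.40 to 4.76). Its relative Stab2 was 16.9 and 197 CPM, 11.6-fold lower (9.56 to 14.3), and it is a marker of the endothelial gate. Kupffer-like cells showed a median of 2 of the 12 endothelial markers and lipid-associated cells 0. The part of stray endothelial RNA was not tested. Cd36, a fatty acid and oxidised lipid receptor, was 1689.6 and 516 CPM, 3.27-fold higher (3.08 to 3.48), and the scavenger receptor Msr1 was 333 and 727 CPM, 2.18-fold lower (2.05 to 2.32). Lrp1, an endocytic receptor that takes up calreticulin-marked cells, was 2271 and 2628 CPM.

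Bridges and opsonins moved in both directions. Of 12 counted of 14, 4 were at least 2-fold higher and 3 lower, with a median of -0.12. Anxa1, an annexin that binds exposed phosphatidylserine, was 591 CPM in lipid-associated and 19.1 CPM in Kupffer-like cells, 31.0-fold higher (22.9 to 42.8). Thbs1, which bridges dying cells to Cd36, was 26.8 and 1.77 CPM, 15.1-fold higher (5.81 to 55.9). Lgals3, a galectin, was 7797 and 1025 CPM, 7.61-fold higher (7.30 to 7.93), and Apoe was 3.20-fold higher (3.17 to 3.24). Colec12, a collectin, was 26.5 and 159.7 CPM, 6.02-fold lower (5.06 to 7.18). C1qc, of the complement starter C1q, was 4218 and 7128 CPM, 1.69-fold lower (1.66 to 1.72), and it is a marker of the macrophage gate.

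In the list drawn up around the adaptor TYROBP and its relative HCST, 4 of 10 counted were at least 2-fold higher and 2 lower, with a median of 0.29. The list also holds other adaptors, such as Fcer1g, so a place in it is no sign that a gene pairs with TYROBP. Clec5a was 21.1 CPM in lipid-associated and 0.887 CPM in Kupffer-like cells, 23.8-fold higher (6.49 to 198) on 2 UMIs in Kupffer-like cells. Clec4d, a receptor for microbial glycolipids, was 239 and 16.9 CPM, 14.2-fold higher (10.3 to 20.1). Treml4, a TREM-like receptor known to bind dead cells in mice, was 26.0 and 279 CPM, 10.7-fold lower (9.12 to 12.6). Fcer1g, the adaptor of Fc receptors, was 2676 and 2212 CPM, 1.21-fold higher (1.17 to 1.25).

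The alpha chains that pair with Itgb2 changed while Itgb2 itself differed little. Of 9 counted in that list of 10, 2 were at least 2-fold higher and 2 lower, with a median of -0.48. Itgax, of complement receptor 4, was 59.1 CPM in lipid-associated and 5.32 CPM in Kupffer-like cells, 11.1-fold higher (6.30 to 21.7). Itgam, of complement receptor 3, was 79.5 and 36.8 CPM, 2.16-fold higher (1.71 to 2.75), in the first of 2 gene rows with that symbol, and 79.5 and 37.7 CPM over both rows. Itgal, of the adhesion integrin LFA-1, was 84.5 and 422 CPM, 5.00-fold lower (4.52 to 5.53). Tln1, which activates integrins from within, was 261 and 518 CPM, Fermt3 231 and 360 CPM, and Itgb1 299.8 and 426 CPM.

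The other lists held engulfment signalling, digestion, restraint and lipid exposure. Of 13 engulfment signalling genes, none was at least 2-fold higher and 2 were lower, with a median of -0.31. Rac2, a small GTPase of phagocytes, was 271 CPM in lipid-associated and 585 CPM in Kupffer-like cells, 2.16-fold lower (2.01 to 2.31), whereas Cdc42 was 703 and 730 CPM and Rhoa 492 and 705 CPM. Of 12 genes of digestion and cholesterol efflux, 1 was higher and 2 were lower, with a median of -0.11. Lamp1, of the lysosome membrane, was 2179 and 1642 CPM, Ucp2 655 and 721 CPM, and Rab7 303 and 220.0 CPM. Of 7 shedding and restraint genes, 1 was higher and none lower, with a median of -0.10. Adam10, a protease able to shed receptors from the surface, was 179 and 259.5 CPM, Sirpa 516 and 492 CPM and Cd47, the signal that Sirpa reads, 387 and 731 CPM. Of 7 genes of lipid exposure, none was higher and 2 were lower, with a median of -0.14, and Ano6, a lipid scramblase, was 114 and 260.0 CPM, 2.28-fold lower (2.05 to 2.53). Tmem30a was 147 and 139.7 CPM, and P2rx7 24.1 and 43.9 CPM.

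Genes whose levels over the 12 classes of at least 40 cells ran most like each of the 10 were sought among 9083 others, by Pearson's r of log2(CPM + 20). These are descriptions over classes of a single matrix. Timd4 was closest to Gfra2 (0.99), Adcy4 (0.98) and Kcnj16 (0.98), which all peaked in Kupffer-like cells. Mertk was closest to Slc7a8, Il18bp and Fabp7 (0.98 to 0.99), and Axl to Pltp, B3galnt1 and Abca1 (0.97 to 0.98). Trem2 ran with Clec7a, Tlr8 and Tmem104 (0.97 to 0.98). Gas6 ran with Kitl and Efemp2 (0.98 each), both highest in mesothelial-like cells. Pros1 was closest to Mef2a, Lrp1 and Plxnb2 (0.96 to 0.97). Tyrobp was closest to Fcer1g, Csf2rb and Csf2ra (0.97 to 0.98), and Itgb2 to Hcls1, Ptprc and Lcp1 (0.95 to 0.97). Mfge8 had the weakest likeness, at 0.88 with Vsig8, 0.86 with Slc6a8 and 0.85 with Ctsk. With an offset of 5 CPM in place of 20, 22 of the 27 genes found by this rule were kept.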

How the data were processed

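Single liver cells were barcoded in microwells (Singleron GEXSCOPE) and sequenced, per the labels' protocols. The authors deposited whole UMI counts for each gene row and cell. GRCm38 is the build in the submitters' processing notes, and the sources used here name no aligner or counting program. Rows of the matrix labelled CluKO were named from the deposited gene table, and wild-type rows were not used here beyond depth.

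The cell filter asked for 200 genes or more and no more than 20% mitochondrial counts, and 4616 of 4694 cells passed. A cell took a class by the number of markers with a UMI (minimum 3 to 7 by class), set from marker counts alone. Cells meeting several lineage gates were left out, and no doublet caller was run. The 10 genes, the lists and the markers were chosen with earlier results of these data known. Counts were summed per class as CPM, with exact Poisson intervals, exact Clopper-Pearson intervals for shares and conditional binomial intervals for ratios, all 95%. PCR copies are collapsed by UMI, and the intervals cover counting error only. A count of 0 was given the limit that 3 counts would set. Ratios were taken for genes with 30 or more UMIs over a pair of classes. The ratio intervals were tried on simulated Poisson counts, the model that they assume. This cannot show that they hold where UMIs lie in few cells. Genes named from the lists were the 3 highest in macrophage/monocyte-like cells and those at least 4-fold different, and others named there were chosen after their values were seen. The genes most alike over classes were the 3 with the highest r for each gene, and 1 of them is not reported here. Python 3.11.15, numpy 2.4.6, scipy 1.17.1, pandas 2.3.3, scanpy 1.11.5, leidenalg 0.10.2, scikit-learn 1.9.0 and matplotlib 3.10.9 were used.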

Additional observations from a re-analysis of the deposited data

How the results depend on the processing

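No ratio counted as at least 2-fold changed its sign under the settings tried for ratios. Changes of sign in smaller ratios were not looked for. The class with the highest level was kept for all 10 genes in 6 of 7 ways of drawing the cells, and for 9 with the gate 1 marker looser. These ways are not independent checks. Dropping the cell filter changed only the erythroid-like class, from 78 to 79 cells, so it could hardly change a leading class. Leiden clusters were named by the same marker lists and gave no Cx3cr1 macrophage-like or dendritic-like class. Leaving mitochondrial, haemoglobin and the 50 most abundant genes out of the totals raised the leading levels to 974 CPM (Timd4), 405 (Mertk), 661 (Axl), 1099 (Gas6), 77.1 (Pros1), 161 (Mfge8), 1867 (Trem2), 5522 (Tyrobp) and 1300.0 (Itgb2). It shifted log2 ratios by 0.15 in lipid-associated against Kupffer-like cells, -0.37 in macrophage/monocyte-like against neutrophil-like cells, -0.06 in Enpp2-positive against other mesothelial-like cells and -0.15 in mesothelial-like against macrophage/monocyte-like cells. Under it, 2 genes in place of 4 were at least 2-fold lower in lipid-associated cells, and 1 in place of 0 in macrophage/monocyte-like cells. With cells of several gates assigned, Timd4 was 741 CPM and Gas6 864. In Leiden clusters, Timd4 was 705, Gas6 847 and Trem2 1336 CPM. The stricter gate gave Gas6 876 and Mfge8 132 CPM, a Trem2 share of 99.7%, and 1 shedding and restraint gene at least 2-fold lower in place of 0. The looser gate gave Gas6 1005 and Tyrobp 4162 CPM. Without the deepest 5% of cells, Gas6 was 1007, Mfge8 96.2 and Tyrobp 4187 CPM. Without cycling cells, Gas6 was 1148, Trem2 1412 and Tyrobp 4444 CPM, and 2 genes in place of 1 were higher in Enpp2-positive cells. As a mean over cells, Gas6 was 1032, Mfge8 91.0 and Tyrobp 4212 CPM, and 2 genes were lower in lipid-associated cells.

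Thinned to 1000 UMIs, shares in the leading class were 49.4% (Timd4), 27.8% (Mertk), 43.8% (Axl), 51.7% (Gas6), 5.34% (Pros1), 4.75% (Mfge8), 72.7% (Trem2), 94.8% (Tyrobp) and 47.5% (Itgb2). With at least 2 UMIs they were 67.4%, 35.9%, 58.4%, 81.9%, 4.24%, 11.1%, 96.3% and, for Itgb2, 70.0% in the same order without Tyrobp, and 0.216% for Tyro3. The use of the reduced total for ratios, levels without cycling cells, and the stricter gate for the lists and for genes seen together in a cell were added after seeing the data. The causes were not tested. With 1 pooled matrix the spread between mice is unknown, and 12 Tyro3 UMIs set no order of classes. No paired analysis was possible because the samples of the matrix carry no replicate number in its barcodes.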
